A study of Mus musculus with 16 samples.

Results

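The Slc22 genes followed here encode membrane carriers that move organic cations, carnitine and organic anions across cell membranes. The set names 9 mouse genes, and the 7 that are paired with a probe set of their own (Slc22a5, Slc22a7, Slc22a18, Slc22a23, Slc22a26, Slc22a27 and Slc22a30) were described, out of 19237 genes tested. Slc22a28 shares its probe set with other genes of the family, and it was not analysed here, nor was Slc22a3. Livers of 8 LRH-1 hep-/- mice (knockout) were compared with livers of 8 LRH-1 hep +/+ mice (control), with 1 Affymetrix array for each liver. Nr5a2 encodes LRH-1, a nuclear receptor, and the labels mark its loss in the hepatocytes of the knockout, without naming the Cre line or the sex of the mice. All mice were 17 to 19 weeks old, ate freely and were killed at 7 am. Values are log2 of the deposited intensity of a probe set. They are compared between livers for 1 gene at a time, since probe sets of different genes have no common scale.

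Carriers of the SLC22 family form several branches. The organic anion branch takes up small anionic metabolites and drugs, the organic cation branch takes up positively charged amines, and the OCTN branch takes up carnitine, which carries long-chain fatty acids into mitochondria. In liver these carriers sit mainly on the blood-facing membrane of hepatocytes, and in rodents a run of additional organic anion genes lies side by side on 1 chromosome.

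All 8 knockouts had less Nr5a2 signal (lowest 7.25, median 7.77, highest 8.25) than any control (lowest 8.45, median 8.70, highest 8.78), with an exact 2-sided permutation p of 0.000155, the smallest that 12870 assignments can give. Its probe set may also read exons outside the deleted part and cells that keep the gene. In a piece of liver, fewer cells of a type and less RNA per cell cannot be told apart. The mean over 9 of 10 named hepatocyte markers lay between 12.24 and 12.31 in knockouts and between 12.20 and 12.40 in controls, and 0 of the 9 were called in limma. Tubule markers were examined because the kidney is rich in these carriers: the mean over 10 measured markers lay between 4.47 and 4.90 in knockouts and between 4.64 and 4.98 in controls, with 1 of them called, lower. The mean over 7 cholangiocyte markers lay between 5.59 and 6.04 in knockouts and between 5.06 and 5.28 in controls, with 2 called higher, and of 9 stellate cell markers 5 were called higher and 1 lower (list means of 7.03 to 7.76 in knockouts and 6.86 to 7.49 in controls). The mean over 11 adipocyte markers lay between 6.41 and 7.89 in knockouts (median 6.73) and between 6.04 and 7.83 in controls (median 6.14), with 2 called higher and 1 lower and a median change per gene of -0.11. Beside these counts, 5.49% of all genes were called higher and 3.2% lower. The part of these cell types in the results was not tested. Knockout 1, control 5 and control 8 stood apart in adipocyte markers, and knockout 5 and control 4 in skeletal muscle markers. Every member kept its call or lack of one without these arrays.

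The carriers moved in both directions. The organic anion carrier Slc22a7 fell to 26.1% of its control level, the cluster genes Slc22a26 and Slc22a27 rose 4.07-fold and 2.05-fold, and Slc22a18 rose 1.28-fold. Slc22a5, Slc22a23 and Slc22a30 did not pass the test. In limma 3 members were called higher and 1 lower at a Benjamini-Hochberg adjusted p under 0.05 over all 19237 genes, of which 5.49% were called higher and 3.2% lower. The median change of the 7 members was 0.36 on the log2 scale, beside 0.00188 over all genes tested. The members were named with results of these livers known, so the share called is no evidence about the family. The genotypes were fully separate for Slc22a7, as for 1.2% of all genes with the knockouts lower, and for Slc22a26, as for 1.69% with the knockouts higher (2.89% of all genes in either direction).

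**Figure D1:**
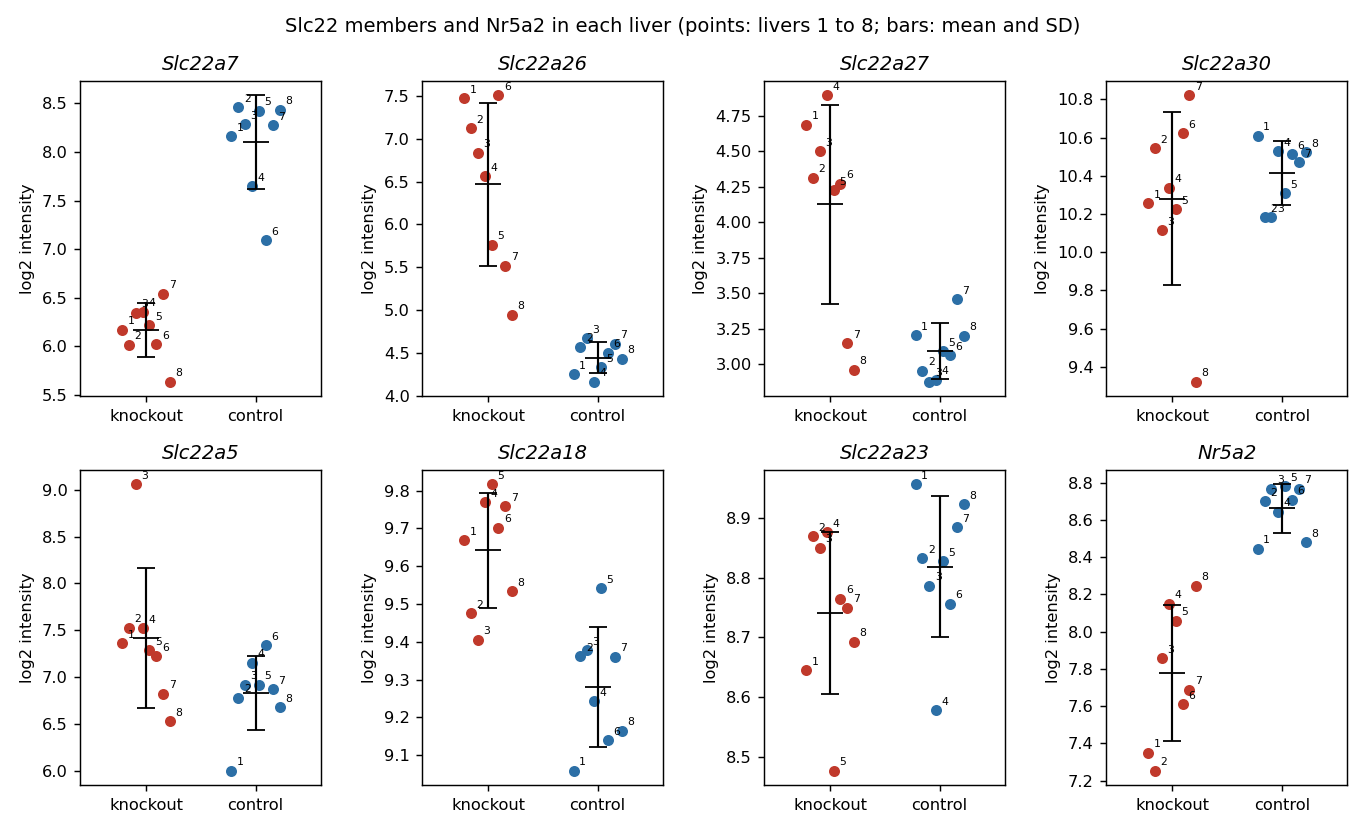
Log2 intensity of the 7 members and of Nr5a2 in each liver, knockout at the left and control at the right of each panel, with the liver's number beside its point and the mean and SD of 8 livers as bars. Slc22a7 and Slc22a26 do not overlap between genotypes, and knockout 3 stands at 9.06 in Slc22a5.

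Slc22a7 encodes OAT2, an organic anion carrier of the hepatocyte membrane that also takes up cyclic nucleotides and uric acid. Its log2 intensity had a lowest value of 5.63, a median of 6.19 and a highest of 6.54 in knockout livers, against 7.09, 8.28 and 8.46 in control livers. Control 6, at 7.09, and control 4, at 7.65, were the lowest controls, and both remained above every knockout. The mean was 6.16 ± 0.28 (SD, n = 8) in knockouts and 8.10 ± 0.48 (SD, n = 8) in controls, a change of -1.94 ± 0.17 (SE) with a 95% confidence interval of -2.29 to -1.58 (limma adjusted p = 1.23e-07). Without control 6 the change was -2.08, and over all settings tried it lay between -2.08 and -1.73. The spread among knockouts was smaller than among controls (SD ratio 0.573, reached by 92.3% of all genes), unlike that of the members that rose on chromosome 19. The low control 6 widened the control SD. The genes whose deviations from the genotype means followed Slc22a7 most closely over the 16 livers were Slc23a1, a vitamin C carrier (Pearson r = 0.86), Cyp2c70, which makes muricholic acids in mice (r = 0.83), and Rarres1 (r = 0.82). In the same order their Spearman rho was 0.71, 0.85 and 0.55. These are the closest of all named genes by Pearson r and carry no test. Between genotypes Slc22a7 fell, whereas Slc23a1 rose by 0.59 ± 0.13 (SE, limma adjusted p = 0.00366) and Rarres1 by 0.94 ± 0.17 (adjusted p = 0.000945), while Cyp2c70 had a change of the same sign as Slc22a7 that was not called (-0.33 ± 0.11, 95% confidence interval -0.55 to -0.11, adjusted p = 0.061; called lower under 5 settings, among them without control 6, -0.39, adjusted p = 0.0208).

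Slc22a26, Slc22a27 and Slc22a30 lie with Slc22a28 and Slc22a29 in a cluster on chromosome 19. They belong to the organic anion branch, and their substrates are little known. The 250 bases before the annotated start of the 3 measured cluster members are shown because 2 of these neighbours rose and 1 did not pass the test. Capitals mark matches to CAAGGTC, the core of a site for NR5A receptors such as LRH-1, or to TTCNNNGAA, the spaced palindrome bound by STAT5, on either strand. The sequences are from RefSeq.
Slc22a26, GRCm38.p6 chr19:7802668-7802917, minus strand: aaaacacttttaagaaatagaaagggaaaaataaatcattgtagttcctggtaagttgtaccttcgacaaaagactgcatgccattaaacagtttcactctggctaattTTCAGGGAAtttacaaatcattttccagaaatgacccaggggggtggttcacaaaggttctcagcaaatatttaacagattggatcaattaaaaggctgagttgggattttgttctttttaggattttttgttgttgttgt
Slc22a27, GRCm38.p6 chr19:7966028-7966277, minus strand: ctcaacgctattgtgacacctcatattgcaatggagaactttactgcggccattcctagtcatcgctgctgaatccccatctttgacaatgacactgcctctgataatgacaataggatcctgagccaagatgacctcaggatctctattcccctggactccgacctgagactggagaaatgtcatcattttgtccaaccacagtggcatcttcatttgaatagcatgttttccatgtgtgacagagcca
Slc22a30, GRCm38.p6 chr19:8405106-8405355, minus strand: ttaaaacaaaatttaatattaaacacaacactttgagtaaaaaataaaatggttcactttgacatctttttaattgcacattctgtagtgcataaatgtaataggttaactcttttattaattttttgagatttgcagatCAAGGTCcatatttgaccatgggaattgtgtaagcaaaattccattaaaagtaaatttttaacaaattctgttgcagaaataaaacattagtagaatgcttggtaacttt

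The window of Slc22a26 held 1 STAT5 match, its first base 141 bases before the start, and the window of Slc22a30 held 1 NR5A core match, 110 bases before the start. The window of Slc22a27 held neither. The longer motif CAAGGNCA, which overlaps the core, matched in none of the 3 windows. Among 32851 windows of the same length in the RefSeq table, 3.32% held the core, 5.53% the longer motif and 7.02% the STAT5 palindrome. The windows of Slc22a26 and Slc22a27 were 50.9% identical in a global alignment, while those of Slc22a28 and Slc22a30 were 93% identical. The genes of the cluster are related copies, and how far a probe set of one reads another was not tested.

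Slc22a26 was raised in all 8 knockouts above any control. Its log2 intensity had a lowest value of 4.95, a median of 6.70 and a highest of 7.51 in knockouts, against 4.16, 4.47 and 4.67 in controls. Knockout 8 (4.95), knockout 7 (5.52) and knockout 5 (5.76) were the lowest of their genotype, and the other knockouts were at 6.56 or more. The mean was 6.47 ± 0.95 (SD, n = 8) in knockouts and 4.44 ± 0.18 (SD, n = 8) in controls, a change of 2.02 ± 0.29 (SE; 95% confidence interval 1.42 to 2.63; limma adjusted p = 6.53e-05). The SD in knockouts was 5.29 times that in controls, a ratio reached by 0.187% of all genes. Without knockout 8 the change was 2.24.

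Slc22a27 rose in knockout livers, with 6 of 8 above every control. It had a lowest value of 2.96, a median of 4.29 and a highest of 4.90 in knockouts, against 2.87, 3.08 and 3.46 in controls. Knockout 7 (3.15) and knockout 8 (2.96) lay within the range of the controls, and the other knockouts, at 4.23 or more, lay above it. The mean was 4.13 ± 0.70 (SD, n = 8) in knockouts and 3.09 ± 0.19 (SD, n = 8) in controls, a change of 1.03 ± 0.22 (SE; 95% confidence interval 0.58 to 1.49; limma adjusted p = 0.00339). The probe set was dim, with mean intensities of 17.5 in knockouts and 8.52 in controls, and the change was 0.48 when 16 was added to each intensity before the log (adjusted p = 0.00894). The ratio of SDs was 3.59, reached by 0.879% of all genes.

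Slc22a30 did not pass the test. Its lowest value was 9.32, its median 10.30 and its highest 10.82 in knockouts, against 10.18, 10.49 and 10.61 in controls, and the genotypes overlapped. The change was -0.13 ± 0.15 (SE; 95% confidence interval -0.45 to 0.18; limma adjusted p = 0.791). Knockout 8 was the lowest liver, and the other knockouts were at 10.11 or more. Without it the change was 0.00261, so the sign of the difference rested on that liver. The knockout SD was 2.72 times the control SD, a ratio that 2.87% of all genes reached.

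Across the knockouts the levels of Slc22a26 and Slc22a27 were both lowest in livers 7 and 8. Their Pearson r over the 8 knockouts was 0.79 (exact permutation p = 0.0212, adjusted p = 0.487 over 56 tests) and their Spearman rho was 0.60 (exact permutation p = 0.132, adjusted p = 0.638). Without knockouts 7 and 8, the livers farthest from the Slc22a26 median, r was 0.12, so the relation rests on those 2 livers. Cyp2b9, a P450 typical of female mouse liver, was at 9.11 in knockout 7 and 9.21 in knockout 8, beside 10.53 to 11.08 in the rest of the knockouts and 3.75 to 5.01 in controls. Hsd3b5, a steroid dehydrogenase typical of male mouse liver, was at 10.03 in knockout 7 and 10.28 in knockout 8, beside 7.48 to 9.15 in the rest of the knockouts and 10.13 to 10.98 in controls. Over the knockouts Slc22a27 followed Cyp2b9 (r = 0.90) and opposed Hsd3b5 (r = -0.83), and Slc22a26 followed Cyp2b9 (r = 0.85). These genes were chosen after their values were seen, and the coefficients are given without a test. Of 22 measured male-biased genes, 20 had a negative r with Slc22a26 and 20 with Slc22a27 in knockouts, with median r of -0.55 and -0.61. Of 13 female-biased genes, 9 and 10 had a positive r, with medians of 0.21 and 0.47. Some genes went the other way with Slc22a26 and Slc22a27. Cux2 of the female-biased list opposed both (r = -0.50 and -0.79). Slco1a1 (0.46 and 0.17) and Mup20 (0.51 and 0.49) of the male-biased list followed both. The share of all genes with such signs was not examined. These genes share the same 8 livers, and knockouts 7 and 8 weigh on each coefficient. Between genotypes 5.49% of all genes were called higher and 3.2% lower. Of the 13 female-biased genes 5 were called higher and 0 lower (median 0.26), and of the 22 male-biased genes 2 higher and 8 lower (median -0.20). Beside Cyp2b9 (5.94 ± 0.28, limma adjusted p = 8.94e-12), those with the smallest p were Ntrk2 (2.25 ± 0.09), Cyp17a1 (1.61 ± 0.26) and Nipal1 (0.79 ± 0.16) of the female-biased list and Susd4 (-2.29), Mup21 (-1.42), Slco1a1 (-0.67) and Elovl3 (-0.84) of the male-biased list. Both lists were chosen with earlier results of these livers known, so their counts are no evidence about sex-biased genes as a set.

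**Figure D2:**
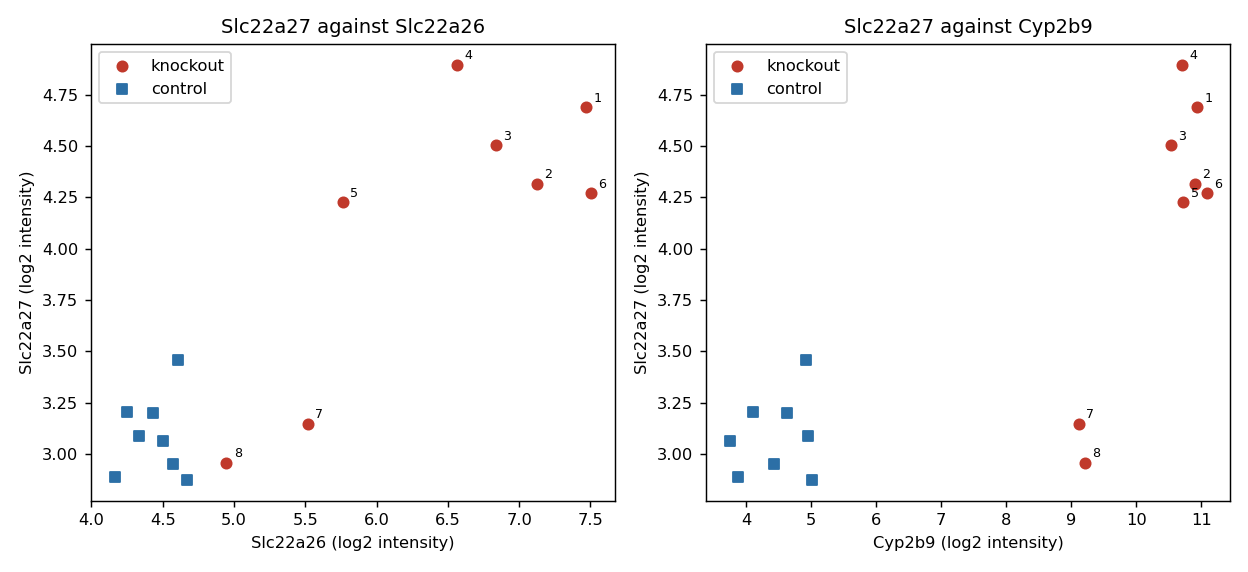
Log2 intensity of Slc22a27 against Slc22a26 (left) and against Cyp2b9 (right), with knockouts as numbered circles and controls as squares. Knockouts 7 and 8 lie apart from the other 6 knockouts in both panels, at 3.15 and 2.96 in Slc22a27.

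The genes closest to Slc22a26 in their deviations over the 16 livers were Nt5e, which encodes the ecto-nucleotidase CD73 (r = 0.86), Ormdl3, a regulator of sphingolipid synthesis (r = 0.85), and Ascc3 (r = 0.82). Those closest to Slc22a27 were Azin1, an inhibitor of antizymes of polyamine metabolism (r = 0.87), Pkp2, a desmosome protein (r = 0.83), and Dhx40 (r = 0.83). In the same order, r in knockouts alone was 0.90, 0.92 and 0.85 with Slc22a26 and 0.95, 0.90 and 0.87 with Slc22a27. In controls alone it was 0.36, 0.72 and 0.25 with Slc22a26 and -0.0045, 0.20 and 0.33 with Slc22a27. Apart from Ormdl3, the likeness thus rested mainly on the knockouts. None of these 6 genes passed the limma test between genotypes, with changes between -0.19 and 0.25 and adjusted p of 0.0803 or more over all livers. Pkp2 was called without knockout 7 (0.28, adjusted p = 0.0439) and without knockout 8 (0.30, adjusted p = 0.0132).

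Slc22a5 encodes OCTN2, the sodium-dependent carrier that supplies cells with carnitine, and mice that lack it (the jvs strain) develop a fatty liver. Its lowest value was 6.53, its median 7.32 and its highest 9.06 in knockouts, against 6.00, 6.89 and 7.34 in controls. Of the 8 knockouts, 4 lay above every control, and 4 lay within the control range. Knockout 3 stood at 9.06, well above the next knockout at 7.53. The mean was 7.42 ± 0.75 (SD, n = 8) in knockouts and 6.83 ± 0.40 (SD, n = 8) in controls, a change of 0.58 ± 0.25 (SE; 95% confidence interval 0.05 to 1.12) that did not pass (limma adjusted p = 0.217). Without knockout 3 the change was 0.35 (adjusted p = 0.3), and without knockout 8, the lowest knockout, it was 0.71 (adjusted p = 0.0824).

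Liver by liver, Slc22a5 followed some genes of the carnitine list and ran against others. Of 11 measured genes of the carnitine list, 5 had an r of 0.70 or more with Slc22a5 in their deviations over the 16 livers: Cpt1a (r = 0.93), which forms acylcarnitines at the mitochondrial surface, the carnitine-acylcarnitine translocase Slc25a20 (0.90), the carnitine acetyltransferase Crat (0.88), Cpt2 (0.86) and the peroxisomal Crot (0.70). Without knockout 3 these were 0.83, 0.86, 0.82, 0.69 and 0.74. The share of all genes with an r of 0.70 or more was not examined, so the count is not particular to the list. The carnitine synthesis gene Bbox1 had an r of 0.43 and Aldh9a1 an r of 0.37, which was -0.20 without knockout 3. The carnitine carriers of the list did not follow Slc22a5: r was 0.11 for Slc22a21, -0.46 for Slc22a4 and -0.64 for Slc22a16. For Cpt1c, a brain form of the palmitoyltransferase, r was -0.38. Without knockout 3 these were -0.11, -0.19, -0.60 and -0.48. The probe sets of Slc22a21 and Slc22a16 were dim, with mean intensities of 31.7 and 20.7 in knockouts and 27.0 and 21.3 in controls. Array medians lay between 38.9 and 43.5. Among all named genes the closest were Grpel2 (r = 0.96), the acyl-CoA thioesterase Acot1 (0.94) and the enoyl-CoA isomerase Eci2 (0.94), looked up after the values of Slc22a5 were seen. In knockout 3, Acot1 stood at 8.12 (rest of the knockouts 4.95 to 6.30), Cpt1a at 10.87 (8.98 to 9.72) and the acute phase gene Saa2 at 11.16 (7.31 to 8.89). Between genotypes, 0 genes of the carnitine list were called higher and 1 lower in limma (median 0.05), Aldh9a1 by -0.29 ± 0.06 (SE, adjusted p = 0.00296). Over all genes the shares called were 5.49% higher and 3.2% lower. The count called higher was 1 without knockout 4, knockout 8 or control 6, after quantile normalization, with a variance trend and above either percentile filter, and 2 with array weights. The count called lower was 2 without knockout 3 or knockout 8 and with array weights. Cpt1a was not called over all livers (-0.37 ± 0.18, adjusted p = 0.317), but without knockout 3 it was called lower (-0.54, adjusted p = 0.00461). Nor was Crat called (0.45 ± 0.17, adjusted p = 0.114). The shared livers and the single high liver bear on all of these coefficients, which carry no test.

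**Figure D3:**
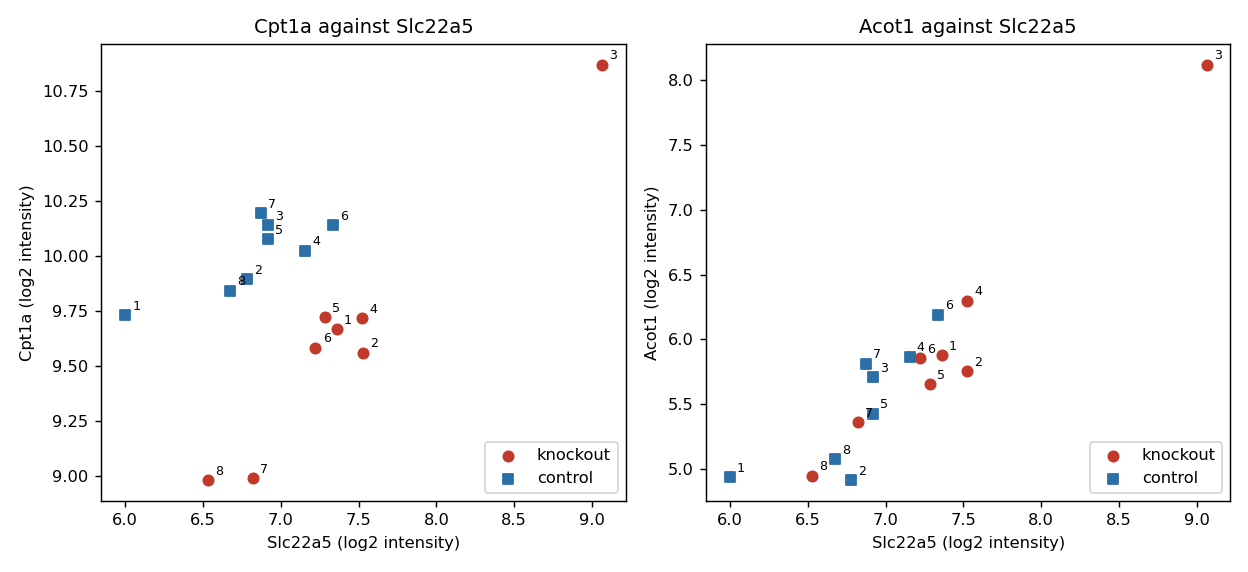
Log2 intensity of Cpt1a (left) and Acot1 (right) against Slc22a5 in the 16 livers, with knockouts as circles and controls as squares, numbered by liver. Knockout 3 is at 9.06 in Slc22a5 and at the top of both panels; the other knockouts lie at 9.72 or less in Cpt1a and the controls at 9.73 or more.

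Slc22a18, an imprinted gene of chromosome 7 expressed from the maternal allele, encodes a carrier related to bacterial drug exporters. Its lowest value was 9.41, its median 9.69 and its highest 9.82 in knockouts, against 9.06, 9.30 and 9.54 in controls. Control 5 (9.54) overlapped the knockouts, and 3 knockouts lay within the control range. The mean was 9.64 ± 0.15 (SD, n = 8) in knockouts and 9.28 ± 0.16 (SD, n = 8) in controls, a rise of 0.36 ± 0.08 (SE; 95% confidence interval 0.20 to 0.52; limma adjusted p = 0.00405). The rise was small and even, with an SD ratio of 0.96, and it lay between 0.33 and 0.40 over all settings tried. Slc22a23, a carrier with no settled substrate, did not pass. It had a lowest value of 8.48, a median of 8.76 and a highest of 8.88 in knockouts, against 8.58, 8.83 and 8.96 in controls. The genotypes overlapped, and the change was -0.08 ± 0.07 (SE; 95% confidence interval -0.22 to 0.07; limma adjusted p = 0.7).

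None of the other family genes passed. Of 14 measured, limma called 0 in either direction, beside 5.49% of all genes called higher and 3.2% lower. Their changes lay between -0.16 and 0.23 (median -0.00237), and 1 gene reached an unadjusted p under 0.05. That gene was Slc22a21, a carnitine carrier of the OCTN branch named after its values were seen, at 0.23 ± 0.08 (SE, adjusted p = 0.0997). Of the 14 genes 1 was called higher with array weights, and 1 without knockout 4. The renal anion carriers Slc22a6 (OAT1) and Slc22a8 (OAT3), whose genes lie beside the cluster on chromosome 19, changed by 0.08 ± 0.10 and 0.06 ± 0.11, and Slc22a2, an organic cation carrier, by 0.002 ± 0.07. Their probe sets were dim, with mean intensities of 31.9, 34.4 and 24.0 in knockouts and 30.2, 33.0 and 23.9 in controls. The lowest array median was 38.9. Slc22a14, Slc22a16, Slc22a19, Slc22a21 and Slc22a22 were also below it in both genotypes. At such signals a lack of change says little. The changes of Slc22a7 (-1.94), Slc22a26 (2.02), Slc22a27 (1.03) and Slc22a18 (0.36) were outside -0.16 to 0.23, as was that of the uncalled Slc22a5 (0.58). The members were named with results of these livers known, so this contrast is no evidence about the family.

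**Figure D4:**
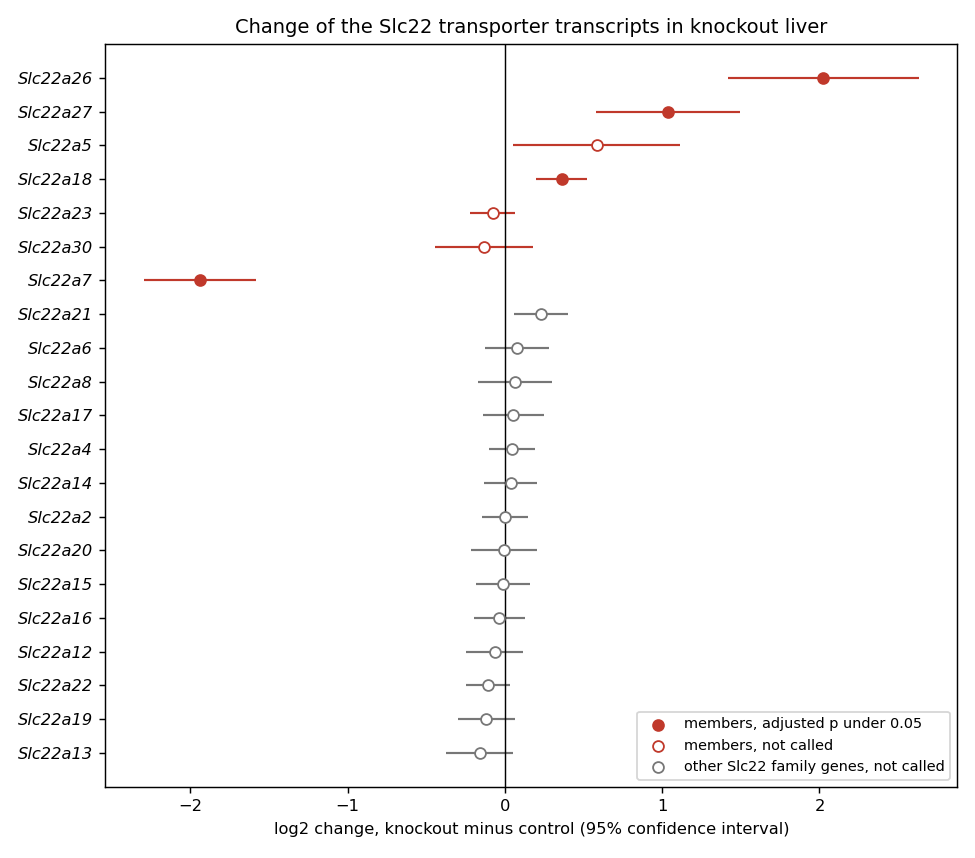
Change of each measured Slc22 gene, knockout minus control on the log2 scale, with 95% confidence intervals, for the 7 members (red) and 14 other family genes (grey). Filled points passed the limma test, which were Slc22a7, Slc22a18, Slc22a26 and Slc22a27.

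The 3 nearest measured protein-coding genes on either side of each member, taken in RefSeq order after the members' values were seen, gave 30 genes beside the members, of which 2 were called higher and 1 lower, a share near the 8.7% called of all genes. Next to Slc22a18, Phlda2, a maternally expressed gene known to restrain placental growth, rose by 1.53 ± 0.22 (SE, limma adjusted p = 7.44e-05). Phlda2 ranged from 6.24 to 8.44 in knockouts and from 5.10 to 5.71 in controls, and it was highest in knockout 8. In the list of 20 measured genes of the imprinted region it was the only gene called (1 was called lower without control 6 and 1 above the 50th percentile), and Cdkn1c, on the other side of Slc22a18, changed by -0.08 ± 0.07. Close to Slc22a7 on chromosome 17, Dnph1, which removes a damaged nucleotide, ranged from 5.89 to 6.27 in knockouts and from 6.50 to 7.27 in controls (-0.77 ± 0.10, adjusted p = 2.57e-05). Close to Slc22a23 on chromosome 13, Tubb2a, a beta-tubulin gene, rose by 0.56 ± 0.13 (adjusted p = 0.00917). The genes flanking Slc22a5 on chromosome 11, Irf1 and Slc22a21, were not called, nor were Slc22a19 and Slc22a8 beside the cluster on chromosome 19. Around the locus of Slc22a3 on chromosome 17, 9 genes of a list were measured, of which Airn, a non-coding RNA of the imprinted domain, rose by 1.08 ± 0.16 (adjusted p = 6.49e-05) and Plg fell by 0.21 on the log2 scale (SE 0.05, adjusted p = 0.0162). Plg was not called without the arrays with adipocyte transcripts (adjusted p = 0.0702), nor under the replicate block. Airn overlaps Igf2r on the other strand, and how far its probe set reads that gene was not tested.

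**Figure D5:**
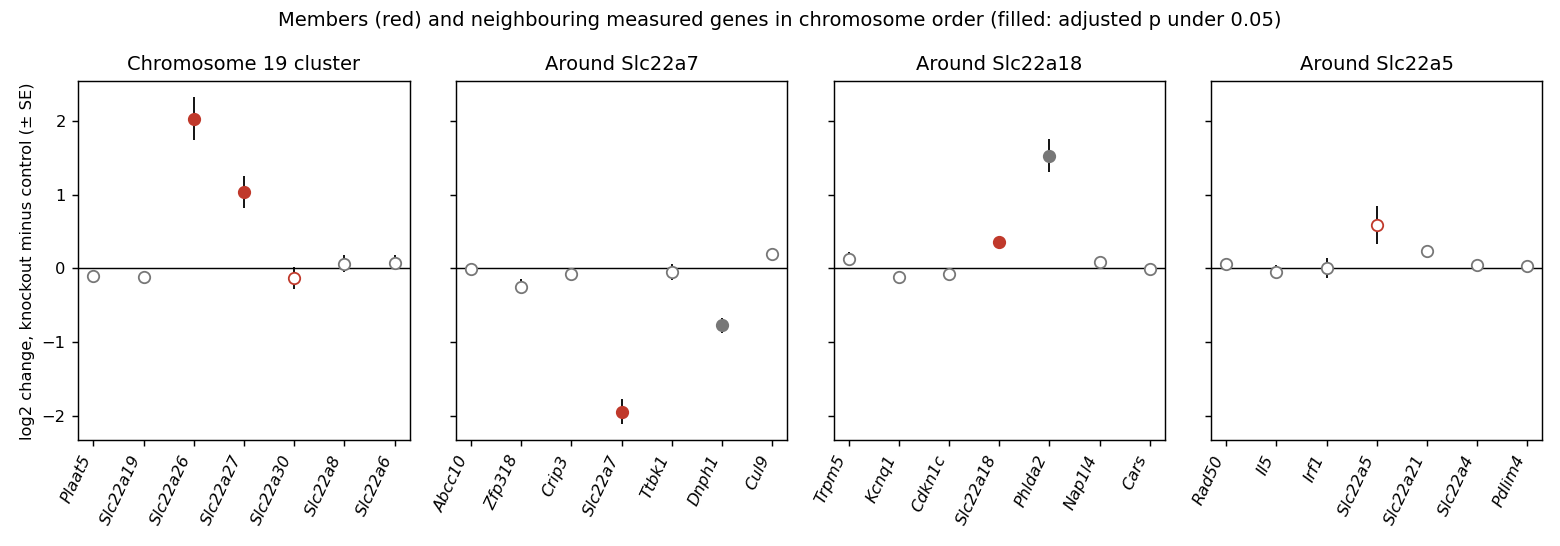
Change, knockout minus control on the log2 scale with SE, of measured genes in chromosome order around the chromosome 19 cluster, Slc22a7, Slc22a18 and Slc22a5. Members are red, neighbours grey, and filled points passed the limma test; Slc22a26 (2.02) and Slc22a27 (1.03) rise between neighbours near 0, and Phlda2 (1.53) lies above Slc22a18 (0.36).

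The carriers that work beside the SLC22 family also went both ways. Of 15 measured efflux and anion carriers 3 rose and 2 fell in limma (median 0.09), and 4 fell without control 1, after quantile normalization (where 4 rose) and with array weights. Abcc3, which exports conjugates back to blood, fell by 0.67 on the log2 scale (SE 0.10, adjusted p = 0.000127), and Abcc2, which exports them into bile, fell by 0.47 (SE 0.09, adjusted p = 0.00163). Abcg2, a canalicular exporter of urate and drugs, rose by 0.47 ± 0.09 (adjusted p = 0.000999), and Slc16a1, a lactate carrier, rose by 0.65 ± 0.13 (adjusted p = 0.0018), highest in knockout 3 at 9.74. Among 10 genes that handle purines, urate and cyclic nucleotides, solutes of OAT2, 3 rose and 1 fell (median -0.15), and 2 fell without control 1, control 2 or knockout 3, after quantile normalization and with array weights. Aldehyde oxidase Aox1 rose by 0.67 ± 0.10, the cyclic AMP phosphodiesterase Pde4d by 0.98 ± 0.13 and xanthine dehydrogenase Xdh by 0.30 ± 0.07, which was not called without the arrays with adipocyte transcripts (adjusted p = 0.0628). Urate oxidase Uox, which breaks down urate, fell by 0.63 on the log2 scale (SE 0.10, adjusted p = 0.00015). Of 22 measured regulators of hepatocyte transporter genes 7 fell and 1 rose (median -0.14), while 4 fell without the arrays with adipocyte transcripts and 11 with array weights. The 7 that fell included Nr0b2, encoding SHP (-4.02 ± 0.20), Cebpa, a hepatocyte factor (-0.72 ± 0.10), and Nr1h4, encoding FXR (-0.57 ± 0.08). Nr5a2, the gene targeted in the knockout, is also counted among the 7. Of all genes tested, 5.49% were called higher and 3.2% lower. These lists were chosen with earlier results of these livers known, so their counts are no evidence about such genes as a set.

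Within a genotype the members showed no relation to one another or to Nr5a2 that passed correction. In 56 tests (28 pairs in each genotype, n = 8 livers), 0 had an adjusted p under 0.05 by the exact permutation test, while 3 Pearson and 7 Spearman coefficients had an unadjusted p under 0.05. Slc22a26 was lower in knockouts with more Nr5a2 signal (Pearson r = -0.70, exact p = 0.0615; Spearman rho = -0.74, exact p = 0.0458; adjusted p = 0.487 and 0.367). Without the 2 livers farthest from the Nr5a2 median r was -0.53. In controls the sign for this pair was opposite (r = 0.52, exact p = 0.19, adjusted p = 0.65). In knockouts Nr5a2 had an r of -0.12 with Slc22a7 and of -0.27 with Slc22a27. Knockout 8 had the highest Nr5a2 of its genotype, at 8.25, and it was the lowest knockout in 5 of the 7 members. In controls, Slc22a18 was higher where Nr5a2 was higher (r = 0.80, exact p = 0.0138; rho = 0.81, exact p = 0.0218; adjusted p = 0.487 and 0.367), with r = 0.67 without the 2 farthest livers. The strongest rank relation was between Slc22a5 and Slc22a23 in controls (rho = -0.95, exact p = 0.00114, adjusted p = 0.0639; r = -0.74, exact p = 0.0572, adjusted p = 0.487), and without the 2 livers farthest from the Slc22a5 median r was -0.92.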

How the data were processed

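Gene expression was measured in 16 mouse livers, 8 of each genotype, from 100 ng of total RNA per array. The authors deposited a linear intensity for each probe set. The submitters' processing notes name Affymetrix Expression Console; its version, the summary algorithm, the normalization and the build were not stated in them. Intensities were taken to log2 with no pseudocount. Of 35556 probe sets, 21456 were paired with 1 gene by the platform annotation, 2376 with several and 11724 were not listed. Gene IDs of 21277 were found in RefSeq (GRCm38.p6, used for names and gene order). The brightest probe set was kept per gene, giving 19237 genes, with no filter.

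Genotypes were compared with limma 3.58.1 (R 4.3.3; lmFit and eBayes, 2-sided), with Benjamini-Hochberg adjustment over all genes. The labels call the livers biological replicates. Members and lists were chosen with earlier results of these data known. Named genes followed a rule: all members, called genes of the other family, up to 4 called genes per list by p, and the 3 genes closest to each called member that changed by at least 1 log2 unit; other named genes were chosen after their values were seen. One further item is not reported here. Correlations within a genotype used all 40320 pairings of 8 livers. Data were simulated as independent normal values with each gene's mean and 1 SD pooled over the genotypes. On these, limma recovered 82% of genes shifted by 0.5 and 100% of genes shifted by 1 (log2), with 6.19% of 194 calls false. The simulation does not cover genes whose spread differs between genotypes, nor shifts that genes share within a liver. Alternatives tried were a replicate block, quantile normalization, median centring, a pseudocount of 16, filters at the 25th and 50th percentiles, the mean of probe sets, all probe sets, array weights, a variance trend with robust fitting and leaving out each array; leaving out arrays with adipocyte or muscle transcripts was added after seeing the data. The number of arrays limits the precision.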

Additional observations from a re-analysis of the deposited data

Results flagged for a closer look

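Each genotype of every named gene was examined for a liver far from the others (Dixon's gap test), and 10 of 102 groups held one. Chance flags about 1 in 20 of unselected groups, but several of these genes were chosen because they followed Slc22a5 or stood high in knockout 3, so the counts cannot be compared. Among the members, Slc22a5 stood at 9.06 in knockout 3 (next knockout 7.53), and Slc22a30 at 9.32 in knockout 8, against 10.11 or more. Knockout 3 was also far above the other knockouts in Acot1 (8.12, next 6.30), Cpt1a (10.87, next 9.72), Saa2 (11.16, next 8.89) and Slc16a1 (9.74, next 8.98). Knockout 8 was highest in Phlda2, at 8.44 against 7.08 or less. Control 1 was lowest in Grpel2 (7.40, against 7.73 or more) and in Eci2 (7.86, against 8.26 or more), and it was also the control with the lowest Slc22a5, at 6.00. Control 2 stood at 8.01 in Saa2, against 6.86 or less in the other controls.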

How the results depend on the processing

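Under the 28 settings tried, every member that was tested kept its direction where it was called and its side of the threshold. Slc22a7 lay between -2.08 and -1.73, Slc22a18 between 0.33 and 0.40, Slc22a26 between 1.5 and 2.24 (27 settings) and Slc22a27 between 0.48 and 1.2 (26 settings). The number of members called higher was 1 among genes above the 50th percentile of mean intensity, where neither Slc22a26 nor Slc22a27 was tested, and 2 above the 25th percentile, where Slc22a27 was not tested. The number called lower was 1 in all settings. The uncalled Slc22a30 lay between -0.21 and 0.04. Same-numbered livers were not paired by the labels, and the correlation of their deviations ran from -0.26 to 0.23, above 0.1 in 2 of 8 pairs, so the numbers were not taken as pairs. With the replicate block 942 genes were called higher and 582 lower, beside 1057 and 616 without it, and 3 members were higher and 1 lower. Under the block Plg was not called (adjusted p = 0.0638) and 1 gene of the carnitine list was called higher. The counts of all genes called stayed within 1.5 times of these in every setting. Of the other family genes 1 was called higher with array weights and 1 without knockout 4. Signals near the floor, as in Slc22a27 and in the controls of Slc22a26, limit how far a fold change can be read.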
